A study of Rattus norvegicus with 6 samples.

Results

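The genes examined here encode 4 enzymes that salivary acinar cells, above all those of the parotid gland, release into saliva: Amy1, Car6, Lpo and Dnase1. They were taken as every probe whose platform gene symbol is one of these names, which gave 1 probe for each, 4 genes of the 14871 that carry a symbol on the array. Male Wistar rats, an outbred strain, were housed singly from weaning at 21 days of age and were tickled, touched lightly or given no stimulus each weekday over 4 weeks. A session alternated 15 s of rest with 15 s of stimulation, and tissue was taken at 60 days of age. Tickling mimics rough-and-tumble play and evokes 50 kHz calls, and light touch is the control for handling. RNA of tickled rats (Cy5) was set against RNA of 1 comparator, no stimulus or light touch (Cy3), on 6 two-colour arrays, 2 per tissue, for striatum, salivary glands and peripheral leukocytes. The labels name no single salivary gland, so parotid, submandibular and sublingual tissue may each contribute, and their extraction text names hypothalamus for all samples. The design counts 4 animals per condition; use of 1 animal or of a pool per array was not given in the sources used here.

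Saliva is made by acinar cells, which synthesise enzymes, store them in granules and release them on nerve signals, and by ducts, which modify the fluid. In parotid acini, noradrenaline acting on beta-adrenergic receptors is the main signal for granule release, and acetylcholine acting on muscarinic receptors drives fluid. Amy1 encodes salivary alpha-amylase, which cleaves starch and is a leading product of the rodent parotid. Car6 encodes the secreted carbonic anhydrase of saliva, which interconverts carbon dioxide and bicarbonate. Lpo encodes lactoperoxidase, a haem enzyme that uses hydrogen peroxide to form antibacterial oxidants, and Dnase1 encodes a secreted endonuclease that digests DNA.

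Values are the deposited log ratios, tickled over comparator, read in base 2, so a value above 0 is higher in tickled rats. Every comparison rests on 1 array, without replicate or dye swap, so no test is possible and precision is limited by the number of arrays. Each of the 4 genes rests on 1 probe and has no error of its own. As a guide to the scatter of single probes, genes with several probes had a median standard deviation between probes of 0.10 on the salivary no-stimulus array and 0.09 on the salivary light-touch array, and 95% of such genes lay below 0.39 and 0.38. That spread lies within 1 array and holds no variation between animals or between arrays. The base of the logarithm was not given in the sources used here. With natural logs the values would grow by a factor of 1.44.

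No promoter window of Car6 was found in the RefSeq table of assembly GRCr8. The windows of the other 3 of the 4 genes are shown, and a link between them and the ratios was not tested. Each runs from 250 bases before the gene's start to 50 after it, on the minus strand, 5′ to 3′, with TATAAA, the core of the TATA box, in capitals where it occurs on either strand.
Amy1, chr2:204085861-204086160: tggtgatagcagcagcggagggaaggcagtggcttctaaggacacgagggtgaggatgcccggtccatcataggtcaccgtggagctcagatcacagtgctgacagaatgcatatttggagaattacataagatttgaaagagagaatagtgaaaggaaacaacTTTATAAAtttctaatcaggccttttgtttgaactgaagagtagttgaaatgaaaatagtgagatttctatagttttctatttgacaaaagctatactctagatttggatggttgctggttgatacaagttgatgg
Dnase1, chr10:12008195-12008494: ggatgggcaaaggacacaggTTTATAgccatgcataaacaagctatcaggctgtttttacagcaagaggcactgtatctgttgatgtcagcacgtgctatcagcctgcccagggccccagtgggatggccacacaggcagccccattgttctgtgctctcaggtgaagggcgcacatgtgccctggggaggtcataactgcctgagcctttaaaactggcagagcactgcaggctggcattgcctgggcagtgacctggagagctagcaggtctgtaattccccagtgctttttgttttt
Lpo, chr10:73123407-73123706: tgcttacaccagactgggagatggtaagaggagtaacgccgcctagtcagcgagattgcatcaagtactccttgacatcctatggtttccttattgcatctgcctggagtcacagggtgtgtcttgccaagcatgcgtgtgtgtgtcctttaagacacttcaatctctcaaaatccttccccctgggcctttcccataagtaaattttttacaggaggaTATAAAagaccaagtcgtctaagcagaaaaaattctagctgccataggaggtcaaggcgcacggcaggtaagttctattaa
In Lpo the TATAAA match began at -31 from the start. In Amy1 it occurred on both strands in 1 overlapping run, beginning at -86 and -84, and in Dnase1 it began at -230 on the opposite strand. Of 33469 windows of this length, 14.2% held TATAAA on either strand. The E-box CANNTG, the kind of site that the acinar transcription factor BHLHA15 (MIST1) binds, had 0 matches in the Amy1 window, 1 in Lpo and 4 in Dnase1, of which 2 overlap; 72.1% of all windows held at least 1. The cyclic AMP response core TGACGT had 0 matches in the 3 windows and occurred on either strand in 7.94% of all windows. A match or its absence describes the letters of these windows only.

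In the salivary glands the 4 genes did not share a profile. Amy1 had a ratio of -1.47 against no stimulus and 1.39 against light touch, so the tickled sample was 2.78-fold below the no-stimulus sample and 2.62-fold above the light-touch sample. Dnase1 had -1.26 against no stimulus, a 2.39-fold difference, and 0.13 against light touch. Car6 went the other way, at 0.59 (1.51-fold higher) against no stimulus and -0.03 against light touch. Lpo lay at 0.01 and 0.03, the only one of the 4 near 0 on both arrays.

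Set against all genes, these sizes were not alike. The sign change of Amy1 set the question asked here, so counts and medians that include Amy1 describe it and lend no support. On the no-stimulus array, 2 of the 4 genes (Amy1 and Dnase1) were 1.5-fold or more lower, where 2.74% of 10522 genes were. Car6 was 1.5-fold or more higher, where 2.94% were. On the light-touch array, 1 of 4, Amy1, was 1.5-fold or more higher, where 0.877% of 10716 genes were, and 0 were lower, where 0.747% were. For Amy1, 0.73% of genes were as far from 0 against no stimulus and 0.09%, or 10 genes with Amy1 included, against light touch. For Dnase1 the shares were 1.12% and 35.9%, for Car6 5.54% and 82.9%, and for Lpo 96.8% and 80.4%. The ratio of Car6 against no stimulus therefore lies just past the 1.5-fold line of 0.58, and that of Dnase1 against light touch is of the size of the scatter between probes. The median of the 4 genes was -0.62 against no stimulus and 0.08 against light touch, beside medians over all genes of -0.01 and -0.00.

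**Figure D1:**
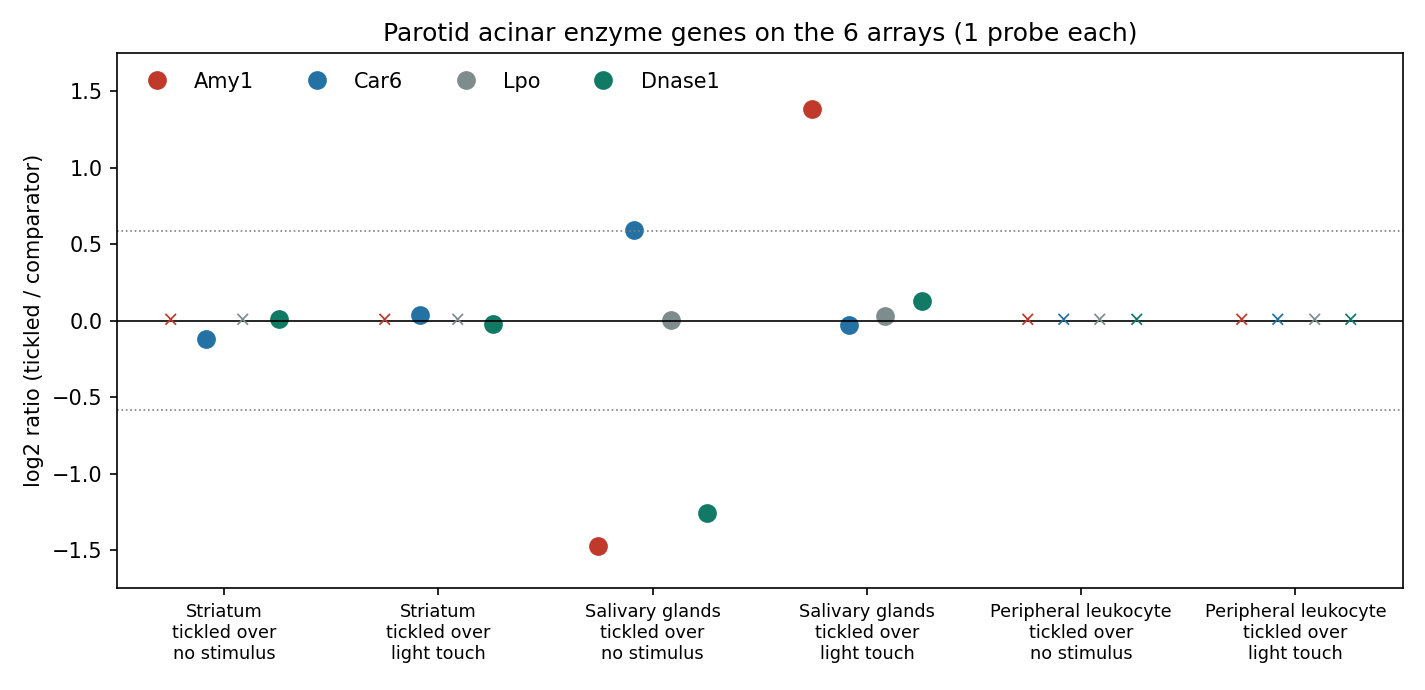
Log2 ratio of tickled over comparator (vertical axis) for Amy1, Car6, Lpo and Dnase1 on each of the 6 arrays; a point is 1 probe, a cross on the zero line marks a probe with no deposited value, and dotted lines mark 1.5-fold. On the salivary no-stimulus and light-touch arrays, Amy1 lies at -1.47 and 1.39, Dnase1 at -1.26 and 0.13, and Car6 at 0.59 and -0.03. Lpo lies near 0 on both, while all leukocyte positions are crosses.

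The sign change of amylase between the salivary arrays was shared in sign by Dnase1 alone among the 4, and in size by none of the others. Amy1 defines the pattern, so only the other 3 are counted. By sign, 1 of the 3 (Dnase1) was lower against no stimulus and higher against light touch, as 16.5% of the 10344 genes valued on both arrays were. At 1.5-fold or more on both arrays the count was 0 of 3; among all genes, Amy1 included, 0.0677%, or 7 genes, met it. Car6 changed sign the opposite way, higher against no stimulus and below 0 against light touch, as 14.8% of genes did, with the second value at -0.03. Lpo had both values above 0, as 33.6% of genes did.

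The 7 genes with the 1.5-fold sign change were Car3, Amy1, Adipoq, Retn, Lepr, Nnat and Bpifa2, in falling order of their smaller ratio. Bpifa2, which encodes the parotid secretory protein, had -0.59 against no stimulus and 2.31 against light touch. Its value against no stimulus lies just past 1.5-fold, and Bpifa2 does not pass at 2-fold on both arrays. Adipoq, the adiponectin gene, had -1.52 and 1.33, and was the gene nearest to Amy1 by Euclidean distance over the 2 salivary arrays (0.07) among 7929 named genes with probes of 1 sign. The next were Car3 (distance 0.30; -1.68 and 1.61), a carbonic anhydrase abundant in fat and muscle, Retn, the resistin gene (0.40; -1.11 and 1.53), Lepr, the leptin receptor gene (0.63; -1.22 and 0.81), and Tpcn2, an endolysosomal channel gene (0.98; -1.33 and 0.42). Each of the 7 has 1 probe with a value on both arrays, as do 6763 of the 10344 genes; among the 1277 genes with 2 or more probes of 1 sign, 0 showed the pattern. Over all features, named or not, 15 of 24999 showed it, 8 of them with no gene name in the annotation used.

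**Figure D2:**
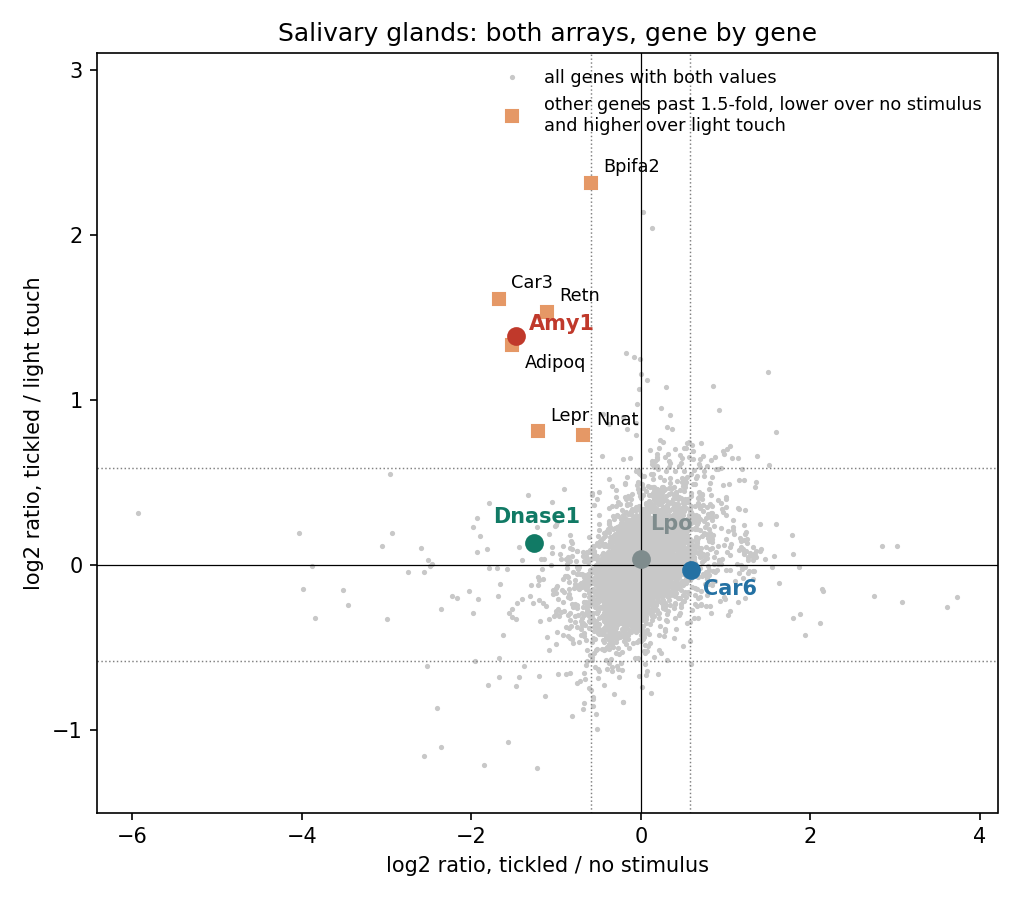
Log2 ratio of tickled against no stimulus (horizontal axis) against tickled against light touch (vertical axis) in salivary glands, 1 point per gene valued on both arrays (10344 genes), with 1.5-fold marked by dotted lines. Amy1 stands in the upper left beside Car3, Adipoq and Retn, whereas Dnase1 (-1.26 and 0.13) lies to the left on the horizontal axis, Car6 (0.59 and -0.03) to the right and Lpo in the centre of the cloud.

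The genes most like the other members by the same distance were different ones. Nearest to Dnase1 were Serpina11 (distance 0.11; -1.22 against no stimulus and 0.23 against light touch), Ddc (0.12), Ppic (0.15), Cnn1 (0.18) and Arg2 (0.18). Ddc encodes aromatic amino acid decarboxylase and Arg2 the mitochondrial arginase. Nearest to Car6 were Fuz, Or5b123, Bdh2, Otud3 and Scnn1b, at distances of up to 0.04, and Scnn1b, which encodes an epithelial sodium channel subunit, had 0.56 and 0.00. Lpo had its nearest genes, Dnajc15, RT1-CE6, Nip7, Stard3nl and Cnot6, at up to 0.004, since the middle of the cloud is dense.

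Since both salivary arrays carry tickled RNA, light touch can be set against no stimulus as the difference of the arrays, which holds only if both carry the same extract; this was not given in the sources used here. On this reading Amy1 was highest without stimulus, with the tickled sample at -1.47 in log2 and the light-touch sample at -2.86 (7.27-fold lower). Counting Amy1 itself, 13 of 10344 genes had a derived value as low or lower. Bpifa2 had -2.90, Adipoq -2.85 and Car3 -3.29. Dnase1 was also highest without stimulus, but its light-touch value (-1.39, 2.61-fold) and its tickled value (-1.26) lay close together, 0.13 apart. Car6 was lowest without stimulus, with light touch at 0.62 (1.54-fold higher) and tickled at 0.59, only 0.03 apart. For Lpo the 3 samples spanned 0.03. Of the 4 genes, 2 (Amy1 and Dnase1) were 1.5-fold or more lower in light touch than in no stimulus, where 2.25% of all genes were. Car6 was 1.5-fold or more higher, where 2.49% were. The count of lower genes includes Amy1, whose values set the question asked.

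**Figure D3:**
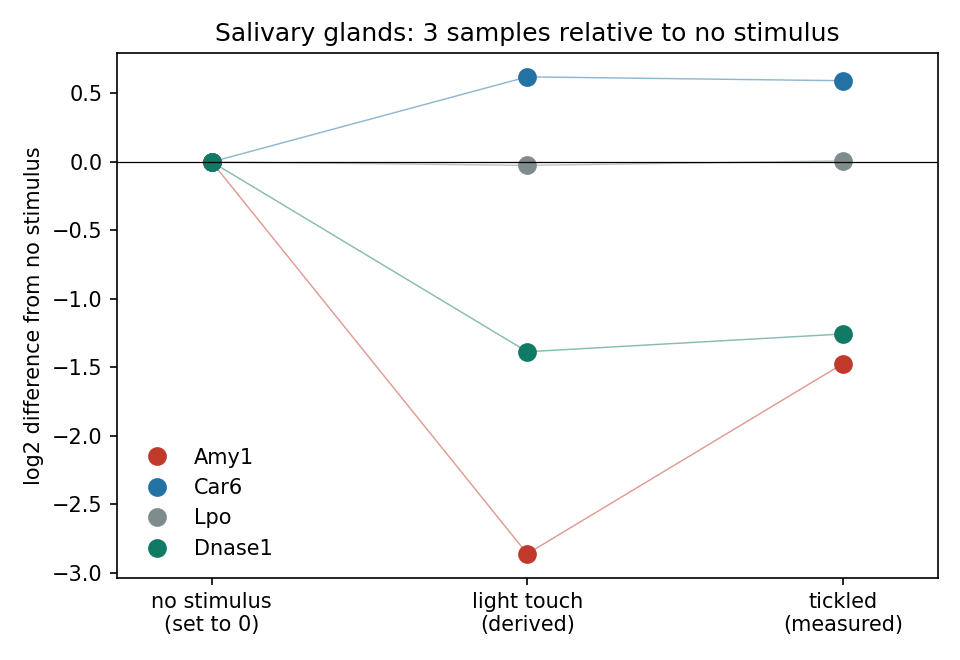
Level of each gene in the salivary light-touch and tickled samples as a log2 difference from the no-stimulus sample, which is set to 0; the tickled value is measured on 1 array and the light-touch value is the difference of 2 arrays. Amy1 separates all 3 samples (0, -2.86 and -1.47), Dnase1 and Car6 separate no stimulus from the other samples, and Lpo lies near 0 throughout.

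Outside the salivary glands few values were deposited for these genes. In striatum, Car6 had -0.12 against no stimulus and 0.03 against light touch, and Dnase1 had 0.01 and -0.02; 49.7% and 76.4% of genes were as far from 0 as Car6, and 95.01% and 84.9% as Dnase1. Neither reached 1.5-fold in striatum, where 1.27% and 1.36% of genes did. Amy1 and Lpo had no value on either striatal array, where 37.7% and 38.3% of all features were blank. Blanks for 2 of the 4 genes are near that share. On the leukocyte arrays 0 of the 4 genes had a value; 71.1% and 71.7% of all features were blank there, beside 41.9% and 40.9% on the salivary arrays. The rule for blank values was not given in the sources used here, and a blank is therefore not read as absence of the RNA. The presence of values differed by list, and with the blank rule unknown these counts are a description and no check of the tissue labels. Of 14871 genes, 10922 and 10835 had values on the striatal arrays and 10522 and 10716 on the salivary arrays. On the leukocyte arrays 6316 and 6182 had values. Striatal neuron markers had values for 7 of 7 on both striatal arrays, 4 and 6 of 7 on the salivary arrays and 2 of 7 on both leukocyte arrays. Leukocyte markers had values for 6 of 7 on both leukocyte arrays and for 6 and 7 of 7 on the salivary arrays. Submandibular granular duct genes had values for 7 of 7 on both salivary arrays and for 1 of 7 on each striatal and leukocyte array. Of these lists, only the granular duct list had values for more genes on both salivary arrays than on any other array. The ratios hold no level against which the parotid label of the 4 genes could be checked.

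Other proteins of parotid saliva were mixed too. Of 7 genes listed, 6 had salivary values: 2 were 1.5-fold or more higher and 1 lower against no stimulus (2.94% and 2.74% of all genes), and 2 were higher and 0 lower against light touch (0.877% and 0.747% of all genes), with medians of 0.33 and 0.17. Prpmp5, which encodes a proline-rich protein, was higher on both arrays (1.51 and 1.17), and Pip, the prolactin-induced protein gene, had 1.87 against no stimulus and -0.01 against light touch. Besides Amy1, Bpifa2 alone of these genes carried the sign change, and only just past 1.5-fold against no stimulus. Amy2a3, the pancreatic amylase gene and the only amylase relative found on the array, had no value on any array. Probe sequences were not used here, so whether the Amy1 probe tells the closely related amylase genes apart was not tested.

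Among the enzyme relatives of the members, single genes passed 1.5-fold. Of 10 carbonic anhydrases with salivary values, 2 were higher and 1 lower against no stimulus (2.94% and 2.74% of all genes) and 2 were higher against light touch (0.877% of all genes), with medians of 0.06 and -0.03. Car2, the cytosolic enzyme of many secretory epithelia, had 0.82 and -0.25, and Car8 had 0.61 and -0.13, the same signs as Car6, whereas Car3 had the signs of Amy1. Car4, a membrane-bound form, had -0.00 against no stimulus and 1.15 against light touch. Among 6 DNases, Dnase2b, a lysosomal-type DNase, was lower against no stimulus (-0.77, and 0.03 against light touch) as Dnase1 was, and Dnase1l3 was higher (0.66 and 0.54); the medians were -0.05 and 0.06. Duox2 encodes an oxidase that makes hydrogen peroxide, the substrate of lactoperoxidase. It had 1.01 against no stimulus and 0.35 against light touch, while Lpo lay near 0. It was the 1 gene past 1.5-fold of the 4 peroxidases and hydrogen peroxide sources valued on the first array (median 0.05), where 5.67% of all genes were. Of 5 on the light-touch array, 0 passed 1.5-fold (median 0.22), where 1.62% of all genes did.

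For the machinery that makes and releases acinar granules, all 10 genes of the secretory programme and granule exocytosis were within 1.5-fold on both salivary arrays, with medians of 0.04 and -0.03. Over all genes 5.67% and 1.62% passed 1.5-fold either way, so a count of 0 of 10 is near the background. Bhlha15, the transcription factor of mature secretory cells, had 0.35 and 0.04, and Rab27b, a granule GTPase, had -0.32 and -0.35. Of 11 receptor and calcium release genes, 0 passed 1.5-fold against no stimulus and 1 against light touch (medians -0.06 and -0.09). That gene was Chrm1, a muscarinic receptor, at -0.06 and 0.86. Adrb1, the beta-1 adrenergic receptor, had 0.55 and -0.35, and the muscarinic receptor gene Chrm3 had -0.29 and -0.09. Among 8 fluid transport genes (medians 0.08 and -0.06), Slc12a2, the cotransporter that loads chloride into acinar cells, was the 1 gene past 1.5-fold, at 0.90 against no stimulus and -0.03 against light touch. Aqp5, the water channel of the acinar apical membrane, had -0.09 on both arrays.

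Markers of other cells of the glands moved on the same arrays, and in bulk tissue fewer cells of a type and less RNA per cell cannot be told apart. Beside the sign change of Amy1, 3 of 7 adipocyte genes with values changed the same way at 1.5-fold or more (Adipoq, Retn and Car3, which is also a carbonic anhydrase of the list above). Of all genes valued on both arrays, 0.0677% did. The median of the adipocyte list was -0.37 against no stimulus and 0.34 against light touch. In that list Fabp4, the fatty acid binding protein of adipocytes, had -0.37 and 0.34, the other 3 lay between -0.14 and 0.13 on both arrays, and Lep, the leptin gene, had no value. Beside the higher Car6 and the lower Dnase1 against no stimulus, 7 of 7 submandibular granular duct genes were 1.5-fold or more higher on that array (range 0.82 to 3.73, median 3.03), where 2.94% of all genes were. On the light-touch array 0 of 7 were (median -0.19), where 0.877% of all genes were. Klk1c9, Klk1c2 and Klk1c12 among the 7 duct genes are close paralogs whose probes may share signal. All 3 mucous acinar genes with a value against no stimulus were 1.5-fold or more lower, where 2.74% of all genes were. They were Gcnt3 (-4.11), Creb3l1 (-1.30) and Spdef (-0.997), with a median of -1.30. The 3 with a value against light touch (Agr2, Creb3l1 and Spdef) were all below 0 but within 1.5-fold (median -0.12). The part of these cells in the ratios of the 4 enzymes was not tested.

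Of 11 pancreatic acinar markers on the array, 3 had a value against no stimulus and 4 against light touch (medians -0.02 and 0.02), and Prss1, Cpa1, Cpb1 and Clps had none. Prss2 was 1 of 3 past 1.5-fold against no stimulus (-0.85, and -0.19 against light touch), where 5.67% of all genes were. Skeletal muscle markers had medians of -0.01 and -0.07 over 4 genes. Of these 4, 1 (Actn3) was 1.5-fold or more higher against no stimulus (1.28, and -0.04 against light touch), where 2.94% of all genes were. All 6 lymphocyte markers lay between -0.03 and 0.21 against no stimulus and between -0.01 and 0.14 against light touch (medians 0.09 and 0.12). Myeloid genes of the leukocyte list were less uniform: S100a9, a neutrophil granule protein gene, had 1.55 and -0.01, Itgam, an integrin gene of myeloid cells, had 0.53 and 0.24, and S100a8 had -0.85 against light touch and no value on the other array. The leukocyte list had medians of 0.21 and 0.04. The part of these cells in the ratios of the 4 enzymes was likewise not tested.

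**Figure D4:**
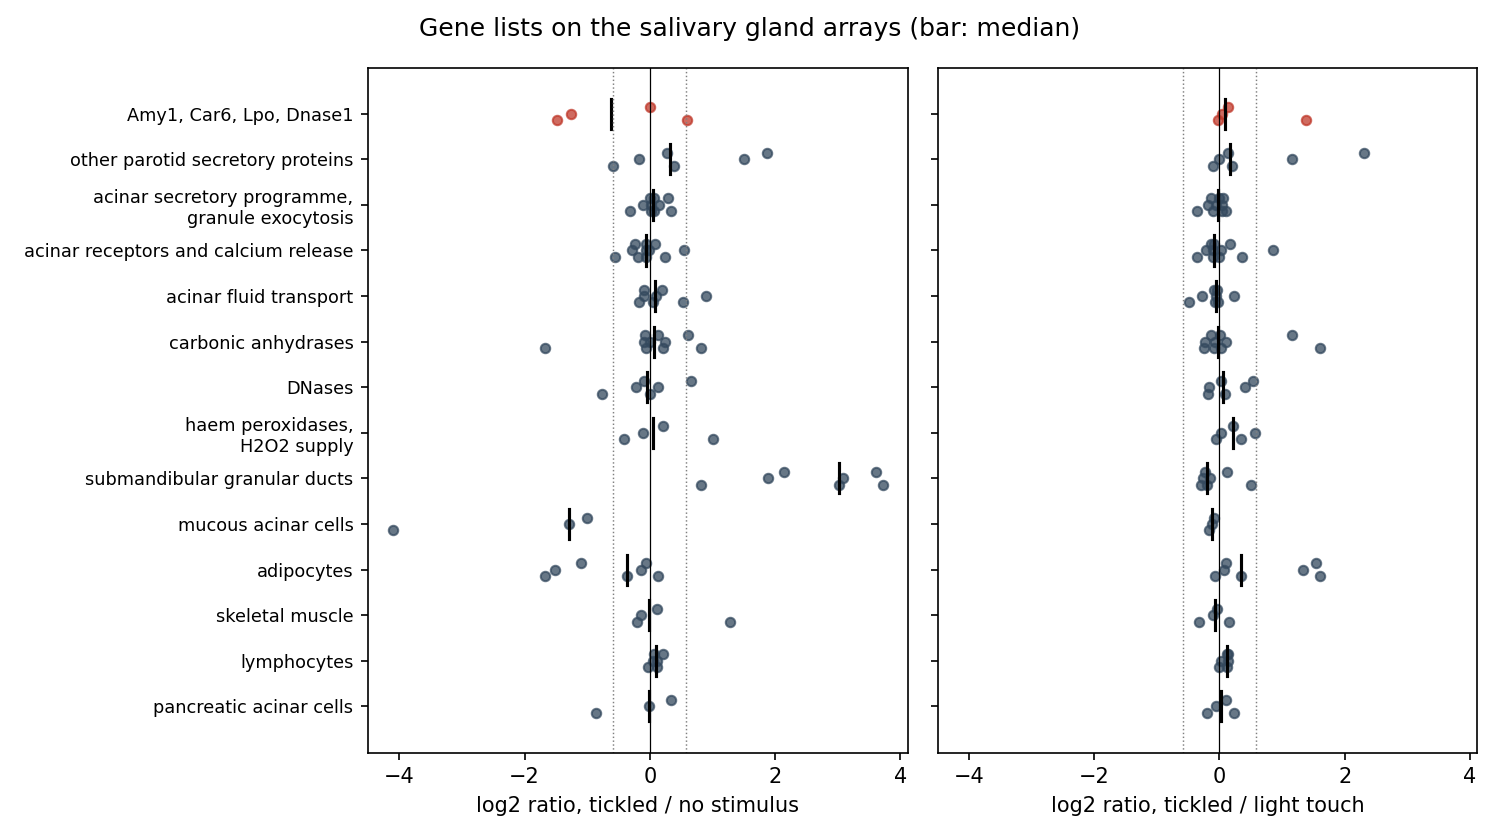
Log2 ratios of the 4 enzyme genes (red, top row) and of the genes of each list (dark points) on the salivary no-stimulus array (left) and the salivary light-touch array (right), with the median of each row as a bar and 1.5-fold as dotted lines. The 4 enzymes spread from -1.47 to 0.59 on the left, secretory programme genes stay within 1.5-fold on both sides, and granular duct genes lie to the right (median 3.03) against no stimulus only.

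The nearest protein-coding genes with names and values on either side of each member on its chromosome lay close to 0. They are not always adjacent, since genes without a value were passed over. Prmt6 and Dph5, each the 6th protein-coding gene from Amy1 on chromosome 2, had -0.06 and 0.09 against no stimulus and 0.02 and 0.13 against light touch. Trap1 (next to Dnase1 on chromosome 10) and Cluap1 (3 genes away on the other side) had -0.14 and 0.09 against no stimulus and 0.05 and 0.10 against light touch. Gpr157 (4 genes from Car6 on chromosome 5) and Eno1 (next to it) had 0.08 and -0.14 against no stimulus, and Supt4h1 (3 genes from Lpo on chromosome 10) and Mks1 (next to it) had 0.05 and 0.06. None of these 8 genes reached 1.5-fold on either salivary array. Over all genes 5.67% did against no stimulus and 1.62% against light touch, so this count is near the background.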

How the data were processed

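The deposited values, read here as log2 ratios, number 1 per feature (44290) and array; the authors made them with Agilent Feature Extraction 9.1 from 500 ng of RNA, per the labels and the submitters' processing notes. Normalization, blank rule and base of the logarithm were not given in the sources used here. A ratio of 216 in base 2, or 2327 under natural logs, would correspond to the most extreme value (7.75 in size). The direction, Cy5 (tickled) over Cy3, follows the labelled dyes; the values themselves do not record it. The 23535 features with 1 symbol were named through the platform annotation, updated by the RefSeq gene table (GRCr8); a gene's value is the median of its probes. Genes were counted at 1.5-fold with no test. Similar genes were ranked by Euclidean distance over the salivary arrays. The members, the gene lists and the rule for named genes (all members, 5 similar genes each, up to 4 genes per list and enzyme relatives past 1.5-fold) were chosen with earlier results of these data known; Aqp5, Lep, Prss1, Cpa1, Cpb1, Clps and chromosomal neighbours fall outside that rule and were chosen once values had been seen. Alternatives were centring, scaling, probe summaries, thresholds and the log base. The counting of genes with the sign change was run on simulated data: of 200 genes planted at 2.83-fold among 10344, 100% were recovered and 0 others counted in each of 5 runs. The planted size lies well past the 1.5-fold line. These runs therefore check the counting only, and not how reliable the real genes counted are, least of all those near the line. Python 3.11.15, NumPy 2.4.6 and pandas 2.3.3 were used.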

Additional observations from a re-analysis of the deposited data

Results flagged for a closer look

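Of the 4 genes, 2 had values in both salivary glands and striatum. For both, the ratios against no stimulus had opposite signs in these tissues and lay more than 1.5-fold apart, as did those of 3.87% of the 9611 genes valued in both. Car6 had 0.59 in salivary glands and -0.12 in striatum, a difference of 0.71 on the log2 scale. Dnase1 had -1.26 in salivary glands and 0.01 in striatum, a difference of -1.27. The striatal values are near 0, so the opposite signs carry little beyond the size of the salivary values. Each value comes from 1 probe on 1 array, and neither difference was tested.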

How the results depend on the processing

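Scaling the arrays to 1 spread gave Amy1 -1.68 against no stimulus, 2.13 against light touch and -3.82 for the derived light touch against no stimulus, and Dnase1 -1.44 against no stimulus and -1.64 derived. Read as natural logs, Amy1 had -2.13, 2.001 and -4.13, Dnase1 -1.81 against no stimulus and -1.9998 derived, and Car6 0.85 and 0.90. The 7 genes with the sign change became 14 with scaling, 15 under natural logs, 4 at 2-fold, 36 at 1.2-fold, 1702 at any size and 0 among genes with 2 or more probes of 1 sign. Genes past 1.5-fold under scaling, natural logs and the 2-fold threshold numbered 262, 494 and 15 on the striatal no-stimulus array, 589, 373 and 18 on the striatal light-touch array, 549, 472 and 27 on the salivary light-touch array, 98, 1116 and 33 on the leukocyte no-stimulus array, and 101, 1741 and 106 on the leukocyte light-touch array. On the salivary no-stimulus array natural logs gave 1187 and the 2-fold threshold 205. Scaling, natural logs and the thresholds move these values by construction and cannot turn a sign, and the restriction to genes with several probes leaves 1277 genes. The other 268 comparisons of a result with an alternative moved by less than the median scatter between probes or, for counts, by at most 1.5 times; they include all those with median centring, the mean of probes and the smallest probe. For each of the 4 genes the mean of probes and the smallest probe equal the main value by construction, since each gene has 1 probe. Leaving out that probe would give no value. No paired analysis was possible because each comparison has 1 array.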
